A study of Homo sapiens with 6 samples.

Results

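The genes described are those of the lysosome and of autophagy, 78 of the 33095 genes in the authors' deposited tables. They were chosen by a pattern of symbols that uses no measured value, with earlier results of these data known. The pattern takes the subunits and accessory proteins of the vacuolar proton pump (ATP6V, ATP6AP), the cathepsins, LAMP1 and LAMP2. It also takes the core autophagy genes (ATG, ULK1, ULK2, BECN1, WIPI), the ATG8 family (MAP1LC3, GABARAP), the cargo receptors SQSTM1 and NBR1 and the transcription factors TFEB, TFE3 and MITF. The cells were MM.1S, a human myeloma cell line, derived from malignant plasma cells, which secrete antibody. They had been transduced with lentivirus carrying a scramble hairpin, shRNA 1 against IRF3 or shRNA 2 against IRF3, and 2 libraries of polyadenylated RNA were sequenced for each of the 3 hairpins. IRF3 is a transcription factor that nucleic acid sensing switches on to induce type I interferon. Whether the paired libraries of a hairpin are separate cultures is not in the labels, so the p-values measure a spread that may be technical.

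Lysosomes digest material delivered by endocytosis and by autophagy, and their hydrolases work in the acid kept up by the vacuolar proton pump, whose soluble V1 sector splits ATP and whose membrane V0 sector carries protons. In autophagy, a kinase complex containing ULK1 starts a membrane that grows by lipid transfer, is coated with ATG8 proteins through conjugation enzymes, takes up cargo bound by receptors such as SQSTM1, and fuses with the lysosome. TFEB, TFE3 and MITF bind a short palindromic motif in promoters of many of these genes. Plasma cells secrete large amounts of immunoglobulin and are known to rely on autophagy.

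IRF3 itself fell with shRNA 1 by 1.53 ± 0.10 (log2, SE; adjusted p 8.45e-46) in the authors' deposited table, to 0.347 times the scramble level. In the libraries labelled shRNA 2 its log2 fold change was -0.18 ± 0.10, which did not pass (adjusted p 0.181), a level 0.881 times that of scramble. All 10 plasma cell markers had mean normalised read counts between 1665 and 31453, whereas markers of macrophages (5 of 7 listed), T cells (3 of 4), fibroblasts (3 of 4) and melanocytes (3 of 4) reached at most 88.7, 57.1, 33.2 and 102. Of the plasma cell markers, 7 fell and 1 rose with shRNA 1 and 8 fell and 1 rose with shRNA 2 in the authors' deposited tables, and their summed reconstructed level was 154188 with scramble, 112553 with shRNA 1 and 101017 with shRNA 2. The macrophage list summed to 45.1, 191 and 117, with ITGAM the marker that rose (log2 2.85 and 2.03, adjusted p 1.98e-09 and 3.32e-05), while the T cell list summed to 39.2, 92.8 and 71.9, with CD3E higher with shRNA 1 (1.35, adjusted p 0.023). Fibroblast and melanocyte lists had no marker that passed. The part of these shifts in the members' values was not tested. The tables give 1 mean normalised read count per gene over the fitted libraries, a log2 fold change with its SE and an adjusted p for each comparison with scramble. Values of individual libraries are not among them, so the depth per library is unknown and no spread between replicates is shown. The level in each group is therefore reconstructed from the mean and both fold changes and has no error of its own. Because both comparisons use the same scramble libraries, their values are set side by side for each gene and not correlated. A lower value in bulk RNA can come from fewer cells or from less RNA per cell, which cannot be told apart.

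A gene is said to have risen or fallen where the authors' adjusted p from DESeq2's Wald test was below 0.05. The Benjamini-Hochberg adjustment covered the genes that have an adjusted p, 14488 with shRNA 1 and 17054 with shRNA 2. With shRNA 1, 21 of the 70 members that have an adjusted p passed, 11 higher and 10 lower, which is 30% of them. Over all 14488 genes tested the share was 24.6%, with 9.80% higher and 14.8% lower. With shRNA 2, 24 of 71 members passed, 14 higher and 10 lower, or 33.8%, against 29.0% of 17054 genes, with 10.9% higher and 18.1% lower. Among genes tested with shRNA 2, the members had a median mean of 1230 normalised counts, against 373 for all genes. Well measured genes pass more often. Among genes with a mean of 1000 or more, 19 of 39 members passed in each comparison, beside backgrounds of 39.4% with shRNA 1 and 46.9% with shRNA 2. The median log2 fold change of the members was -0.04 with shRNA 1 and 0.06 with shRNA 2, and that of all genes tested was -0.03 and -0.003. With shRNA 1, 1 member passed with a log2 fold change past 1 in size, or 1.43%, against 3.62% of all genes tested. With shRNA 2 there were 6, or 8.45%, against 8.02%. The other members comprise 11 with a mean under 50, and 8 members with shRNA 1 and 7 with shRNA 2 carry no adjusted p.

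The difference between the hairpins passed for 25 of 70 members, by a z test of the difference of the fold changes with Benjamini-Hochberg adjustment over 14488 genes. The share of all genes that passed this test was 24.0%, with 10.1% higher and 13.8% lower with shRNA 2, and of the members 12 were higher and 13 lower. Among genes with a mean of 1000 or more, 19 of 39 members passed this test, beside 1987 of all 5147 such genes. The median difference of the 70 members, shRNA 2 minus shRNA 1, was 0.06.

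Promoter windows show which members carry the motif that TFEB and its relatives recognise. RefSeq windows on GRCh38.p14, from 250 bases before to 50 after the start, were matched by symbol for 61 members. The core searched was TCACGTGA, a palindrome that reads alike on both strands and contains the shorter E-box CACGTG. The core occurred in 5 of the 61 members (8.2%), against 1.18% of the 27305 genes with a window and 2.16% of the 10937 such genes tested here. The shorter CACGTG was in 10 (16.4%), against 8.77% of all genes with a window and 12.5% of those tested. The 40 bases around the core are shown for the 5 genes that hold it, for LAMP1 around the first core, with the core in capitals.
ATG3, minus strand, chr3:112561935-112561974: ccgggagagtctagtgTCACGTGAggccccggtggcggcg
ATP6V0D1, minus strand, chr16:67481194-67481233: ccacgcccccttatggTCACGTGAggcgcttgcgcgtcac
ATP6V1G1, plus strand, chr9:114587694-114587733: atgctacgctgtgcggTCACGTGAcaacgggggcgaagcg
CTSA, plus strand, chr20:45891293-45891332: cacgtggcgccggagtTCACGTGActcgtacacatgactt
LAMP1, plus strand, chr13:113297194-113297233: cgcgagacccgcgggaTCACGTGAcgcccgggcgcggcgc
Counted in bases from the RefSeq start, the core is centred at 8 in ATG3, -56 in ATP6V0D1, -55 in ATP6V1G1, -22 in CTSA and -25 in LAMP1. LAMP1 has a second core at 2. In the authors' deposited tables ATG3 fell in both comparisons, CTSA rose in both, ATP6V1G1 rose with shRNA 1 and did not pass with shRNA 2, and LAMP1 and ATP6V0D1 passed in neither. A match describes the letters and shows no binding.

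In the V1 sector, the ATP-splitting head of the pump, 5 of 11 tested members passed with shRNA 1 (3 higher, 2 lower) and 3 with shRNA 2 (2 higher, 1 lower). These counts and those of the groups below stand beside 24.6% and 29.0% of all genes tested. Among all genes with a mean of 1000 or more, the shares were 39.4% and 46.9%. The lowest adjusted p of the sector in both tables belonged to ATP6V1C2 (ENSG00000143882, GRCh38 chr2:10721100-10785110), one of 2 genes for the C subunit, which ties V1 to V0. Its reconstructed level was 552 normalised counts with scramble, 1371 with shRNA 1 and 1568 with shRNA 2, so both hairpin groups lay above scramble. In the authors' deposited tables ATP6V1C2 rose by 1.31 ± 0.13 (log2, SE; adjusted p 2.59e-22) with shRNA 1 and by 1.51 ± 0.13 (adjusted p 1.46e-29) with shRNA 2. As ratios these are 2.49 (95% interval 2.09 to 2.96) and 2.84 (2.39 to 3.39), and the difference between the hairpins, 0.19 ± 0.18, did not pass (adjusted p 0.519). The other C subunit gene, ATP6V1C1, had values of -0.26 and -0.33 that did not pass (adjusted p 0.185 and 0.0717). With scramble, ATP6V1C1 had more reconstructed counts (782 against 552) over a longer annotated exon length (5851 against 3483 bases). Whether the expressed transcripts have these lengths is not known here. Per kilobase of annotated exon, ATP6V1C2 made up 54.2% of C subunit RNA with scramble, 77.9% with shRNA 1 and 80.9% with shRNA 2. Of its exon bases, 29.7% also lie in exons of PDIA6, an abundant gene on the opposite strand whose deposited fold changes were -0.43 and -1.11. Whether the counting used strand is not known here.

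ATP6V1F (chr7:128862826-128865844), a subunit of the rotating central stalk, had the lowest adjusted p within V1 for the difference between the hairpins. Its reconstructed level was 2880 with scramble, 1627 with shRNA 1 and 3330 with shRNA 2. By the authors' deposited tables it fell by 0.82 ± 0.09 (log2, SE; adjusted p 1.64e-16) with shRNA 1, while its value of 0.21 ± 0.09 with shRNA 2 did not pass (adjusted p 0.0733). That value passes when fold changes are recentred on the median gene (adjusted p 0.0266). The difference of 1.03 ± 0.13 between the hairpins passed (adjusted p 3.17e-13). KCP, on the opposite strand, shares 23.7% of the exon bases of ATP6V1F, with deposited fold changes of 0.26 and 0.46. ATP6V1FNB, annotated next to it on the same strand (chr7:128866308-128872044), was at 238, 292 and 554 reconstructed counts with scramble, shRNA 1 and shRNA 2. It rose with shRNA 2 by 1.22 ± 0.20 (adjusted p 4.36e-08) in the authors' deposited table and had 0.29 ± 0.21 with shRNA 1 (adjusted p 0.346), and the difference passed (adjusted p 0.00971).

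ATP6V1B2, the nucleotide-binding B subunit, rose with both hairpins in the deposited tables, by 0.30 ± 0.09 and 0.29 ± 0.09 (adjusted p 0.00694 and 0.00951). ATP6V1G1, a stator subunit, was at 3353, 4261 and 3015 reconstructed counts with scramble, shRNA 1 and shRNA 2. It rose with shRNA 1 (log2 0.35, adjusted p 0.0127) and did not pass with shRNA 2 (-0.15, adjusted p 0.355), and the hairpins differed by -0.50 ± 0.16 (adjusted p 0.0109). Its stator partner ATP6V1E1 fell with shRNA 1 (-0.29, adjusted p 0.0351), a call that is lost on recentring (adjusted p 0.0826) or with no filter on low genes (adjusted p 0.0792). ATP6V1E2, the minor E gene with a reconstructed 146, 136 and 68.5 counts, fell with shRNA 2 by 1.09 ± 0.32 (adjusted p 0.0029) in the authors' deposited table. ATP6V1G2, at a mean of 41.9, passed in neither comparison (-0.996 ± 0.57 and 0.976 ± 0.52), whereas the difference of 1.97 ± 0.77 passed (adjusted p 0.0451) and did not with low genes kept in the adjustment (0.102). ATP6V1A, the catalytic subunit, was at 3864, 3346 and 3758 reconstructed counts and passed in neither table (adjusted p 0.0962 and 0.826).

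In the V0 sector and its accessory proteins, 4 of 10 tested members passed with shRNA 1 (2 higher, 2 lower) and 6 with shRNA 2 (2 higher, 4 lower). ATP6AP1 (chrX:154428632-154436516), an accessory protein needed to assemble the pump, was at 3535 reconstructed counts with scramble, 2737 with shRNA 1 and 1487 with shRNA 2. In the authors' deposited tables it fell by 0.37 ± 0.10 (log2, SE; adjusted p 0.00222) with shRNA 1 and by 1.25 ± 0.10 (adjusted p 1.59e-31) with shRNA 2. The fall was larger with shRNA 2, by a difference of -0.88 ± 0.15 (adjusted p 3.81e-08). ATP6AP2 (chrX:40579372-40606848), the accessory protein also known as the prorenin receptor, was at 1968, 1271 and 1493. It fell by 0.63 ± 0.11 (adjusted p 3.69e-07) with shRNA 1 and by 0.40 ± 0.11 (adjusted p 0.00197) with shRNA 2, per the deposited tables, and the difference of 0.23 ± 0.16 did not pass (adjusted p 0.322). Both main accessory genes thus lay below scramble in each comparison.

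ATP6V0A1 (chr17:42458844-42522611), the a subunit through which protons pass, was at 2483 and 2645 reconstructed counts with scramble and shRNA 1 and at 1388 with shRNA 2. The authors' deposited tables give 0.09 ± 0.10 (log2, SE; adjusted p 0.594) with shRNA 1 and a fall of -0.84 ± 0.10 (adjusted p 9.71e-15) with shRNA 2, and the difference of -0.93 ± 0.14 passed (adjusted p 3.69e-09). ATP6V0C and ATP6V0B encode the proton-carrying ring. ATP6V0C was at 4106, 5627 and 3536 reconstructed counts with scramble, shRNA 1 and shRNA 2. It rose with shRNA 1 by 0.45 ± 0.09 (adjusted p 1.02e-05), did not pass with shRNA 2 (-0.22, adjusted p 0.0627), and differed between them by -0.67 ± 0.13 (adjusted p 4.48e-06). Another annotated gene on the same strand, at a mean of 1.16, covers 57.5% of the exon bases of ATP6V0C. ATP6V0B was at 5013, 5035 and 3760 reconstructed counts. It had 0.01 ± 0.08 for shRNA 1 and a fall of -0.42 ± 0.08 (adjusted p 3.22e-06) for shRNA 2 in the deposited tables. ATP6V0E1, a small membrane subunit, rose by 0.25 ± 0.09 (adjusted p 0.024) and 0.29 ± 0.09 (adjusted p 0.00552), the first of which does not pass with no filter on low genes (adjusted p 0.0543). ATP6AP1L, a relative of ATP6AP1 at a mean of 153, rose with shRNA 2 (0.83 ± 0.31, adjusted p 0.0251) and was at -0.04 ± 0.31 with shRNA 1. ATP6V0D1 and ATP6V0E2 passed in neither table, with fold changes between -0.07 and -0.13.

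Cathepsins are the main lysosomal proteases, and 4 of 12 tested passed with shRNA 1 (3 higher, 1 lower) and 5 of 13 with shRNA 2 (3 higher, 2 lower). Only CTSA, a carboxypeptidase that also stabilises other hydrolases, passed in both comparisons. It was at 5594, 7153 and 7478 reconstructed counts with scramble, shRNA 1 and shRNA 2, and rose by 0.35 ± 0.09 (log2, SE; adjusted p 0.00071) and 0.42 ± 0.09 (adjusted p 2.82e-05) in the authors' deposited tables. CTSF (chr11:66563463-66568841), a cysteine protease, showed the largest difference between hairpins among cathepsins. It was at 143 reconstructed counts with scramble, 91.1 with shRNA 1 and 340 with shRNA 2. The deposited fold change was -0.65 ± 0.29 with shRNA 1, which did not pass (adjusted p 0.0838), and 1.25 ± 0.27 with shRNA 2 (adjusted p 4.09e-05), and the difference was 1.90 ± 0.40 (adjusted p 2.59e-05). CTSS, which processes the invariant chain of MHC class II, rose with shRNA 2 by 0.50 ± 0.11 (adjusted p 3.3e-05) from a reconstructed 2304 to 3264, and stood at 2159 with shRNA 1.

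The abundant proteases CTSB and CTSD, a cysteine and an aspartic protease, were at 7296 and 6953 reconstructed counts with scramble. With shRNA 1 and shRNA 2, CTSB was at 8546 and 6413 and CTSD at 6866 and 5335. By the authors' deposited tables CTSB rose with shRNA 1 (log2 0.23 ± 0.08, adjusted p 0.0315, or 0.0712 with no filter on low genes) and CTSD fell with shRNA 2 (-0.38 ± 0.09, adjusted p 7.01e-05). Both differed between the hairpins, by -0.41 ± 0.12 (adjusted p 0.00387) and -0.36 ± 0.12 (adjusted p 0.0148). Another annotated gene on the same strand covers 41.7% of the exon bases of CTSD. That gene had a mean of 37.6 and deposited fold changes of -1.11 and 2.52. CTSZ, a carboxypeptidase, rose with shRNA 1 by 0.44 ± 0.11 (adjusted p 0.000774) and CTSC, which activates granule serine proteases, fell by 0.37 ± 0.11 (adjusted p 0.00547), while neither passed with shRNA 2 (-0.10 and 0.12). CTSO fell with shRNA 2 (-0.46 ± 0.12, adjusted p 0.000912). CTSL passed in neither table (0.53 ± 0.24 and -0.36 ± 0.25), and its difference of -0.88 ± 0.35 (adjusted p 0.0488) is lost with low genes in the adjustment (0.104). Lysosomal membrane proteins LAMP1 and LAMP2, often used to measure lysosome content, were at 6134 and 2991 reconstructed counts with scramble. Neither passed in either table: LAMP1 had 0.09 ± 0.08 and -0.14 ± 0.08 (adjusted p 0.465 and 0.165) and LAMP2 had -0.09 ± 0.09 and 0.09 ± 0.09 (adjusted p 0.542 and 0.524).

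**Figure D1:**
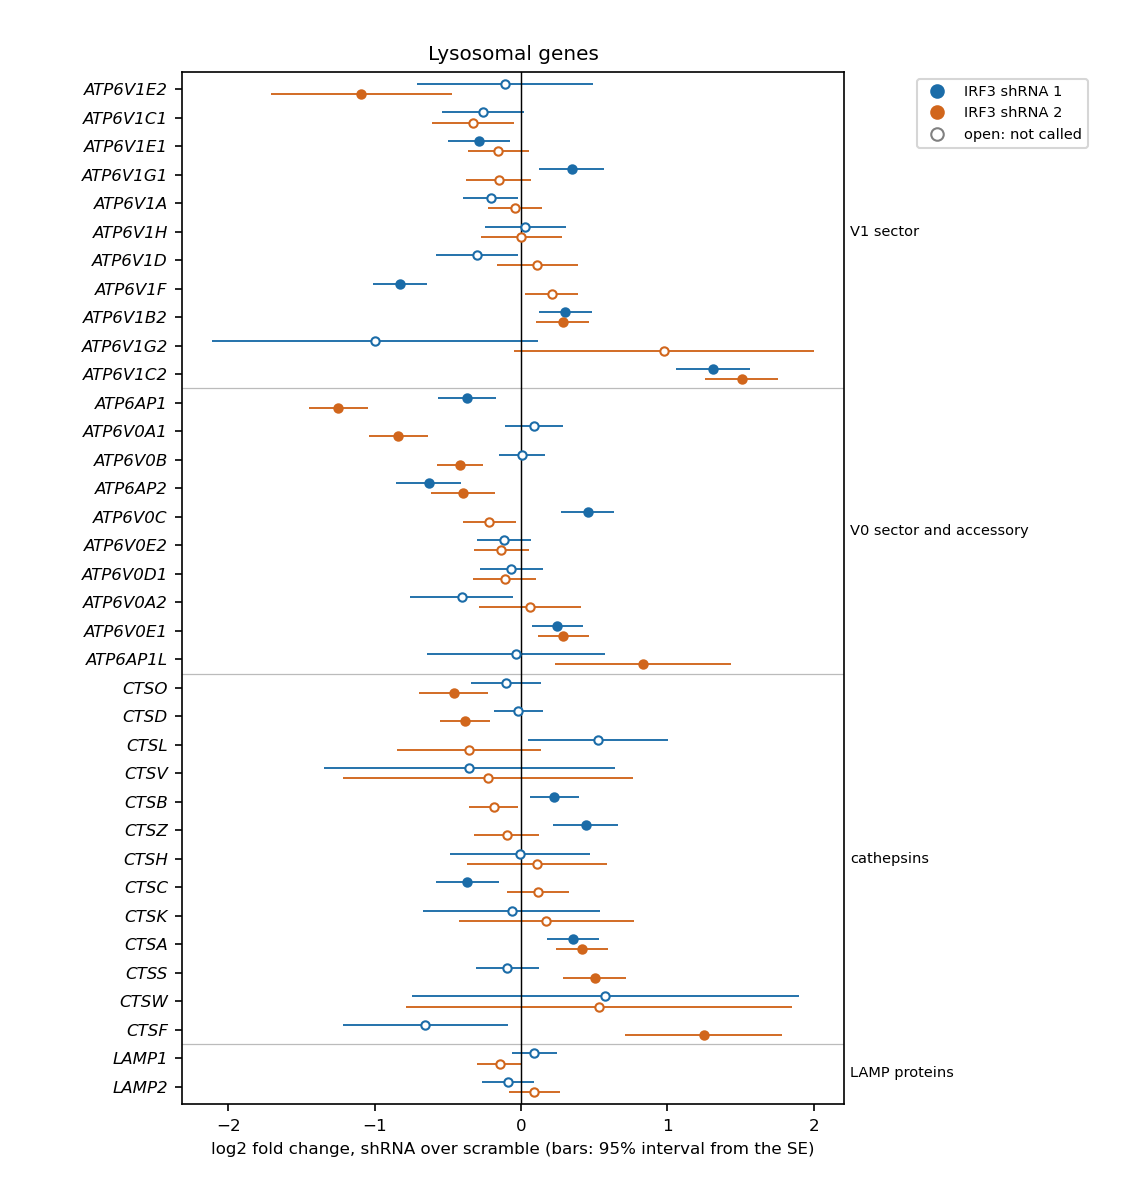
Log2 fold change over scramble (horizontal axis) of the tested pump, cathepsin and LAMP genes for shRNA 1 (blue) and shRNA 2 (orange), with 95% intervals from the authors' SE; filled points passed at an adjusted p below 0.05. ATP6V1C2 lies right of 0 for both hairpins (1.31 and 1.51), ATP6AP1 and ATP6AP2 lie left of it for both, and all points of LAMP1 and LAMP2 are open, the farthest at -0.14.

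Among the 12 genes of initiation and membrane growth, all tested, 2 passed with shRNA 1 (1 higher, 1 lower) and 4 with shRNA 2 (3 higher, 1 lower), and 5 differed between the hairpins. ATG2A (chr11:64894546-64917248) transfers lipid into the growing membrane and passed in both comparisons, in opposite directions. It was at 1812 reconstructed counts with scramble, 1245 with shRNA 1 and 3542 with shRNA 2. In the authors' deposited tables it fell by 0.54 ± 0.11 (log2, SE; adjusted p 1.01e-05) with shRNA 1 and rose by 0.97 ± 0.11 (adjusted p 4.9e-18) with shRNA 2. The difference of 1.51 ± 0.15 had the lowest adjusted p of all members (6.58e-21). Its paralogue ATG2B passed in neither table (-0.15 ± 0.13 and 0.27 ± 0.13).

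ULK1 (chr12:131894651-131923167), the kinase that starts autophagy, was at 1286, 1052 and 1971 reconstructed counts with scramble, shRNA 1 and shRNA 2. It rose with shRNA 2 by 0.62 ± 0.14 (log2, SE; adjusted p 0.000141) in the deposited table, was at -0.29 ± 0.15 with shRNA 1 (adjusted p 0.145), and differed between the hairpins by 0.90 ± 0.21 (adjusted p 0.000125). BECN1, a subunit of the lipid kinase complex that marks the site, rose with shRNA 2 (0.35 ± 0.11, adjusted p 0.00847), with -0.22 ± 0.11 for shRNA 1 (adjusted p 0.145) and a difference of 0.57 ± 0.16 (adjusted p 0.00248). These 3 genes were the ones of the group that rose with shRNA 2. WIPI2, which reads the lipid mark, fell with shRNA 2 (-0.36 ± 0.11, adjusted p 0.00514) and had 0.13 with shRNA 1. ATG9A, the membrane protein of the seed vesicles, rose with shRNA 1 by 0.41 ± 0.11 (adjusted p 0.00102) in the authors' deposited table and was at -0.19 with shRNA 2, a difference of -0.60 ± 0.15 (adjusted p 0.000726). A second annotated gene on the same strand covers 38.8% of the exon bases of ATG9A. That gene, at a mean of 298, had deposited fold changes of 0.47 and 0.23. ATG13, a partner of ULK1, missed the threshold with shRNA 2 (0.30 ± 0.12, adjusted p 0.0523) and passes when recentred (0.0235) or over genes with a mean of 50 or more (0.0416).

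Of the 11 genes that conjugate ATG8 proteins to lipid, all tested, 2 passed with shRNA 1 (1 higher, 1 lower) and 2 with shRNA 2, both lower. ATG3 (chr3:112532509-112562046), the conjugating enzyme, was at 1857 reconstructed counts with scramble, 1169 with shRNA 1 and 894 with shRNA 2. By the authors' deposited tables it fell with both hairpins, by 0.67 ± 0.13 (log2, SE; adjusted p 6.44e-06) and by 1.06 ± 0.13 (adjusted p 5.55e-14). The difference of -0.39 ± 0.19 did not pass (adjusted p 0.125), and it does when the shared scramble variance is left out of the SE (0.0123). The activating enzyme ATG7 and the conjugate of ATG12, ATG5 and ATG16L1 passed in neither table, with fold changes between -0.23 and 0.18. The proteases ATG4B and ATG4D, which trim ATG8 proteins, each passed once in the deposited tables. ATG4B rose with shRNA 1 (0.38 ± 0.13, adjusted p 0.0217), and ATG4D fell with shRNA 2 (-0.41 ± 0.15, adjusted p 0.0276), a call lost on recentring (0.0527) or with no filter on low genes (0.0533). ATG4D had 0.36 ± 0.15 with shRNA 1 (adjusted p 0.0603) and differed between the hairpins by -0.77 ± 0.21 (adjusted p 0.00239). KRI1, on the opposite strand at a mean of 1520, shares 15.0% of the exon bases of ATG4D. Its deposited fold changes were -0.06 and 0.23. ATG16L2 passed in neither table (-0.22 and 0.19), with a difference of 0.41 ± 0.15 (adjusted p 0.0295) that is lost with low genes in the adjustment (0.0672).

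ATG8 proteins coat the autophagosome and bind receptors, and 4 of the 7 genes were tested: MAP1LC3A, MAP1LC3B2 and MAP1LC3C had means under 10 and no adjusted p. GABARAPL2 was at 803, 535 and 729 reconstructed counts with scramble, shRNA 1 and shRNA 2, and fell with shRNA 1 by 0.59 ± 0.15 (log2, SE; adjusted p 0.000678) in the authors' deposited table. GABARAP was at 3593, 3032 and 3857. It fell with shRNA 1 by 0.24 ± 0.08 (adjusted p 0.0184), a call lost on recentring (0.0603), and differed between the hairpins by 0.35 ± 0.12 (adjusted p 0.0178). An overlapping annotated gene on the same strand covers 30.5% of its exon bases. That gene, at a mean of 40.6, had deposited fold changes of -6.74 and 2.37. MAP1LC3B, the most used marker of autophagosomes, was at 1159, 1320 and 1209 and did not pass (0.19 ± 0.15 and 0.06 ± 0.15), nor did GABARAPL1 (-0.25 ± 0.21 and 0.32 ± 0.21). No ATG8 gene passed with shRNA 2.

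The cargo receptor NBR1 (chr17:43170481-43211689) was at 3662 reconstructed counts with scramble, 2792 with shRNA 1 and 4280 with shRNA 2. It fell by 0.39 ± 0.09 (log2, SE; adjusted p 8.91e-05) with shRNA 1 and rose by 0.22 ± 0.09 (adjusted p 0.0349) with shRNA 2 in the authors' deposited tables, and the difference of 0.62 ± 0.12 passed (adjusted p 9.48e-06). The rise is lost with no filter on low genes (adjusted p 0.0672). SQSTM1, which carries ubiquitinated cargo and had the highest mean of all members, was at 11099, 10802 and 13221 reconstructed counts. It rose with shRNA 2 by 0.25 ± 0.08 (adjusted p 0.0117), had -0.04 ± 0.08 with shRNA 1 (adjusted p 0.809), and the difference of 0.29 ± 0.12 did not pass (adjusted p 0.0568). Leaving the shared scramble variance out lowers the SE of this difference to 0.08. MRNIP, on the opposite strand, shares 20.7% of the exon bases of SQSTM1, with deposited fold changes of -0.03 and 0.20.

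Of the transcription factors, MITF was at 338 reconstructed counts with scramble, 501 with shRNA 1 and 296 with shRNA 2. It rose with shRNA 1 by 0.57 ± 0.18 (log2, SE; adjusted p 0.0107) in the authors' deposited table, had -0.19 ± 0.19 with shRNA 2 (adjusted p 0.515), and differed between the hairpins by -0.76 ± 0.26 (adjusted p 0.0185). TFE3, at 1482, 1669 and 1834, rose with shRNA 2 (0.31 ± 0.11, adjusted p 0.0237) and had 0.17 ± 0.11 with shRNA 1 (adjusted p 0.293). TFEB, at 452, 408 and 502, passed in neither (-0.15 ± 0.18 and 0.15 ± 0.17).

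**Figure D2:**
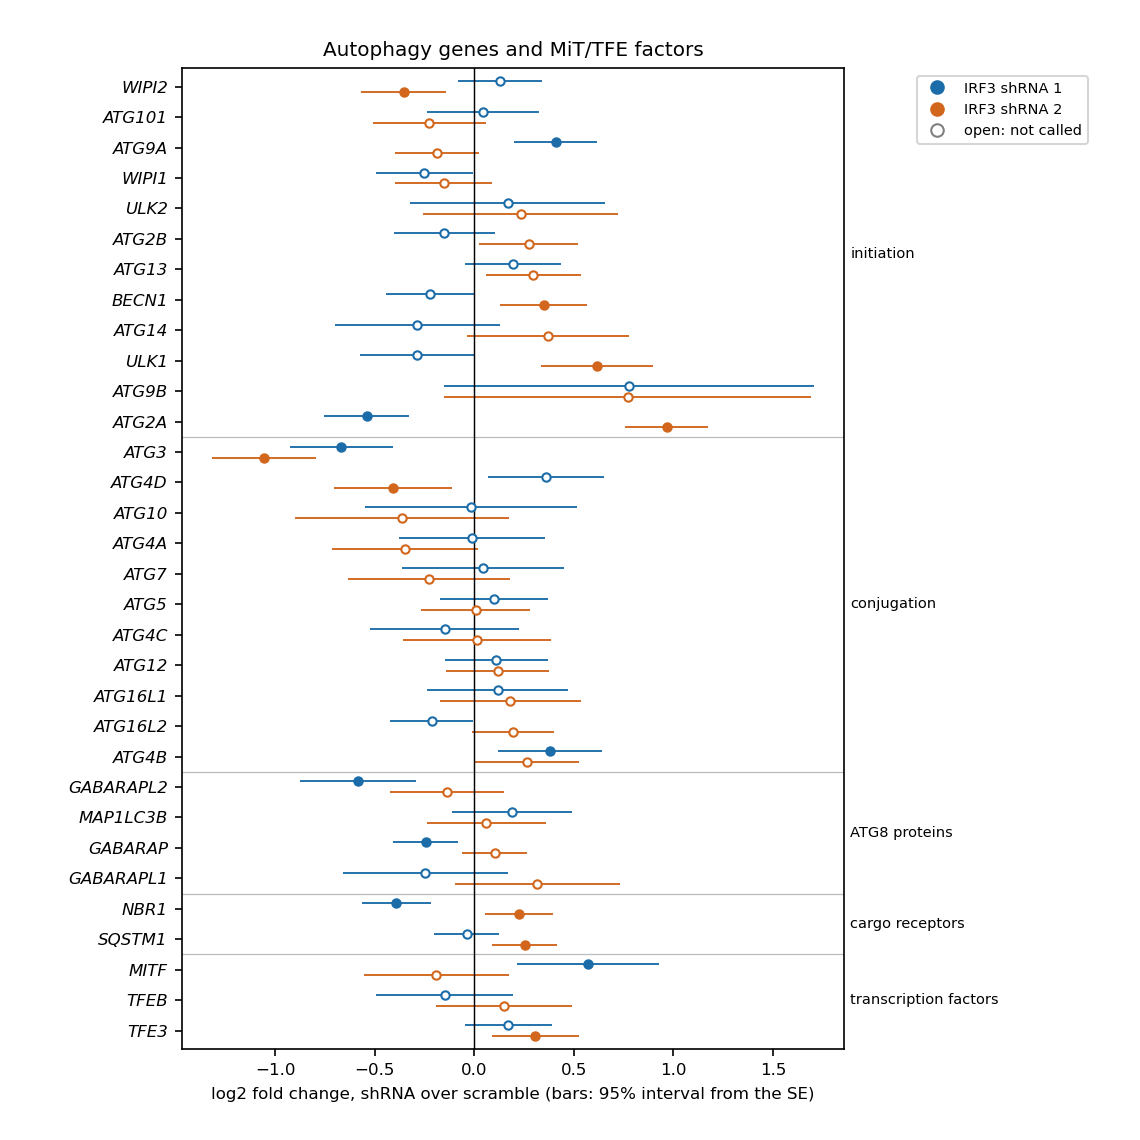
Log2 fold change over scramble (horizontal axis) of the tested autophagy genes and transcription factors for shRNA 1 (blue) and shRNA 2 (orange), with 95% intervals from the authors' SE; filled points passed at an adjusted p below 0.05. ATG3 lies left of 0 for both hairpins (-0.67 and -1.06), while ATG2A and NBR1 lie left of it for shRNA 1 and right of it for shRNA 2.

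Levels between genes were compared per kilobase of exon in GENCODE 29, as reconstructed normalised counts with scramble. ATP6V1F was highest at 3651 per kilobase, followed by the pump genes ATP6V0C at 2741 and ATP6V1G1 at 2569 and by CTSD at 2224. ATP6V0E1 stood at 1721, GABARAP at 1585, SQSTM1 at 1450, ATP6V0B at 1418 and LAMP1 at 1069. These levels have no error here, so neighbours in this order are not separated. The order also depends on the lengths, which count every annotated exon base, 789 for ATP6V1F and 7654 for SQSTM1. Whether the expressed transcripts have these lengths is not known here. All 78 members together held 0.511% of the summed mean normalised counts.

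Members not described above passed in neither comparison of the authors' deposited tables. ATP6V1B1, ATP6V0A4 and ATP6V0D2, pump genes known from specialised tissues such as kidney and bone, had means of 0.653, 2.10 and 5.41 and no adjusted p. Tested without passing were ATP6V1D, ATP6V1H and ATP6V0A2 of the pump, the cathepsins CTSH, CTSK and CTSV, and the autophagy genes ULK2, ATG14, ATG101, ATG9B, WIPI1, ATG4A, ATG4C and ATG10. CTSW, a protease of cytotoxic lymphocytes at a mean of 24.3, had an adjusted p with shRNA 2 alone (0.64). The symbol pattern also took the antisense RNAs ATP6V0E2-AS1 and ATP6V1B1-AS1 and the readthrough gene ATP6V1G2-DDX39B, of which 2 were tested and none passed; 87.6% of the exon bases of the readthrough gene are those of DDX39B.

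**Figure D3:**
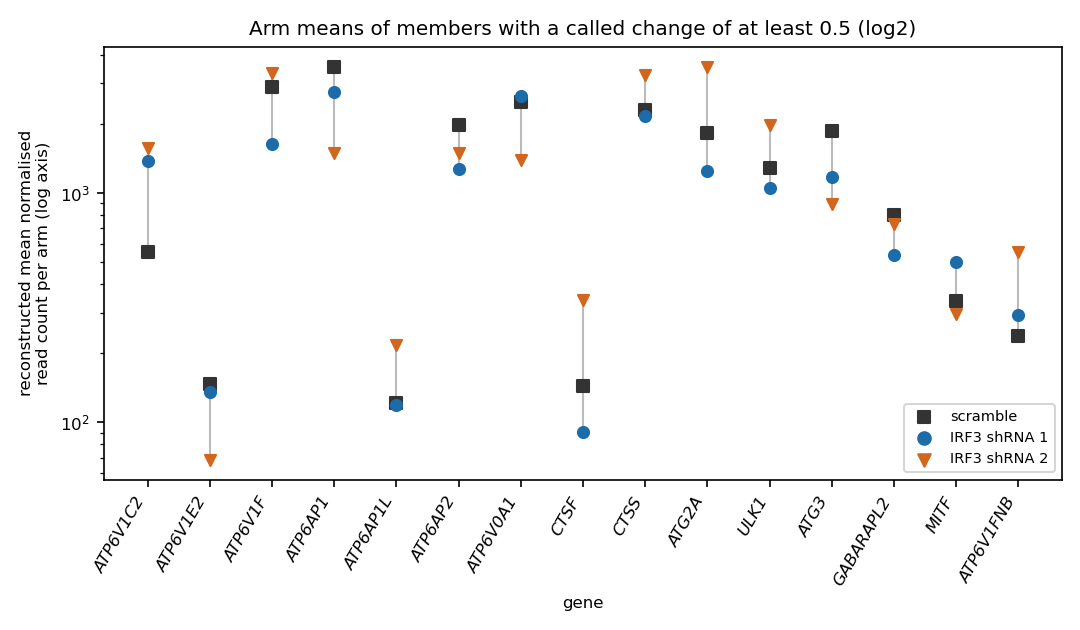
Reconstructed mean normalised count (vertical axis, log scale) with scramble, shRNA 1 and shRNA 2 for the 15 members that passed in at least 1 comparison with a log2 fold change past 0.5 in size; points have no error bars because no single-library values are in the tables. ATP6V1C2 is above scramble with both hairpins, ATG3, ATP6AP1 and ATP6AP2 are below it with both, and ATG2A lies below it with shRNA 1 and above it with shRNA 2.

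Other genes of the pathway were counted in 7 lists, beside the 24.6% and 29.0% of all genes that passed. Of 41 acid hydrolases and their activators, 20 passed with shRNA 1 (5 higher, 15 lower) and 20 with shRNA 2 (8 higher, 12 lower), with median log2 fold changes of -0.19 and 0.01. SCPEP1, a serine carboxypeptidase, and PPT1, which removes palmitate from proteins, fell with shRNA 1 (log2 -1.48 ± 0.09 and -1.74 ± 0.11, SE; adjusted p 6.83e-55 and 3.61e-50) in the authors' deposited table, and had -0.15 and -0.14 with shRNA 2. GM2A, the activator for ganglioside breakdown, fell by 1.51 ± 0.12 with shRNA 1 and rose by 0.33 ± 0.11 (adjusted p 0.0137) with shRNA 2, and the difference passed for all 3 genes. Of 31 tested lysosomal membrane proteins and channels, 11 passed with shRNA 1 (4 higher, 7 lower) and 10 with shRNA 2 (3 higher, 7 lower). The cation channel TPCN1 rose with both (0.47 and 0.82), while LAPTM4A and the hydrolase receptor SCARB2 fell with shRNA 2 (-1.004 and -0.79) and did not pass with shRNA 1.

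Of 20 genes that sort proteins to lysosomes, 6 passed with shRNA 1 (5 higher, 1 lower) and 10 with shRNA 2 (3 higher, 7 lower). IGF2R, the large mannose phosphate receptor, rose with shRNA 1 (log2 0.63 ± 0.07, adjusted p 9.1e-17) in the authors' deposited table, and the adaptor subunit AP1G1 fell (-1.07 ± 0.10). The receptor SORT1 fell with shRNA 2 (-1.13 ± 0.12, adjusted p 9.71e-20). Of 35 genes of mTORC1, the nutrient-sensing kinase complex on the lysosome, 14 passed with shRNA 1 (2 higher, 12 lower) and 12 with shRNA 2 (6 each way). FNIP2 and RRAGD, which relay amino acid supply, fell with both hairpins (-1.48 and -1.27, and -0.71 and -1.25), and DEPTOR, an mTOR inhibitor known for high levels in myeloma, fell with shRNA 1 (-0.70) and rose with shRNA 2 (0.29).

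Of 22 tested genes of initiation, the lipid kinase complex and membrane supply outside the members, 3 passed with shRNA 1 and 6 with shRNA 2. RUBCN, an inhibitor of that complex, fell with both in the deposited tables (log2 -0.75 and -0.30), SMCR8 fell with shRNA 1 (-0.69), and VMP1 rose with shRNA 1 (0.46). Of 19 further cargo receptors, 7 passed with shRNA 1 (1 higher, 6 lower) and 6 with shRNA 2 (3 each way). CALCOCO1, a receptor for endoplasmic reticulum, fell with shRNA 1 by 0.95 ± 0.11 and rose with shRNA 2 by 0.52 ± 0.10 in the authors' deposited tables, the same directions as NBR1. The ferritin receptor NCOA4 and the reticulum receptor CCPG1 fell with shRNA 1 (-0.69 and -0.85) and did not pass with shRNA 2. Of 33 genes of fusion and lysosome positioning, 11 passed with shRNA 1 (4 higher, 7 lower) and 10 with shRNA 2 (3 higher, 7 lower). VAC14, a scaffold for a lipid kinase of endosomes, fell with shRNA 2 (-0.69), and the tether EPG5 fell with shRNA 1 (-0.95).

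**Figure D4:**
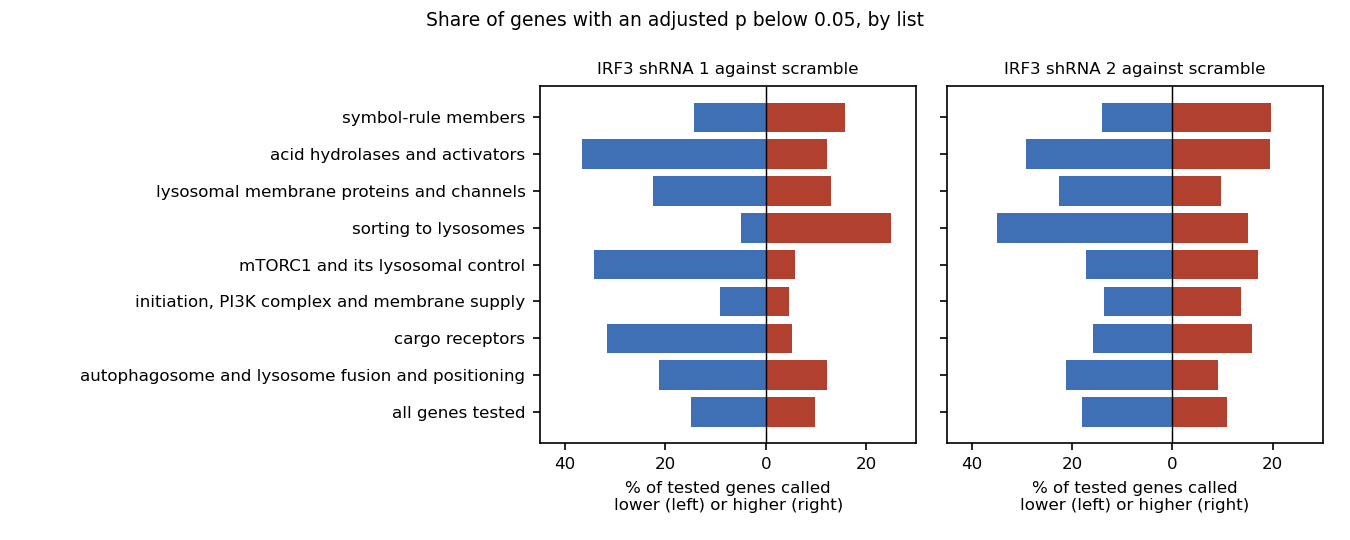
Percent of tested genes of each list that passed at an adjusted p below 0.05 (horizontal axis), lower to the left and higher to the right, for each hairpin against scramble. The members had 11 genes higher and 10 lower with shRNA 1 and 14 higher and 10 lower with shRNA 2, beside all genes tested in the lowest bar (9.80% higher and 14.8% lower, 10.9% and 18.1%).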

How the data were processed

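RNA sequencing of MM.1S cells gave 2 libraries each for scramble, shRNA 1 and shRNA 2, and groups follow the hairpin in the labels. Salmon 0.12.0, DESeq2 1.24.0 and the GRCh38 build are listed in the submitters' processing notes. For annotation, strand use and settings, nothing was stated in the sources used here. The authors deposited 2 tables of comparisons. Per the file headers these hold a signal, the mean normalised read count. They hold the log2 fold change with its SE, both as deposited by the authors. The Wald score deposited by the authors equals the fold change over its SE to within 1.25e-07 in the first table. Each p-value, raw or adjusted, is the one deposited by the authors. Adjusted p-values were present for 14488 genes (lowest mean 26.8) and 17054 genes (lowest mean 11.8), and other genes enter no count. The depth per library is unknown.

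Fold changes are read as shRNA over scramble. Both tables come from 1 fit, so dispersions solved from each should match: over 1203 genes their median absolute log ratio was 0.00753 as coded, 0.181 with the second table turned, 0.0924 with the first turned and 0.139 with both turned. Group levels were reconstructed from the mean and both fold changes. The hairpins were compared by a two-sided z test on the difference of fold changes, with SE the root of the summed squared SEs, which the shared scramble libraries make too large, and Benjamini-Hochberg adjustment. This was tested on simulated data. The dispersions were known there, so the simulation cannot show how the test fares with dispersions estimated from 2 libraries per group. Python 3.11.15, pandas 2.3.3 and scipy 1.17.1 were used. Coordinates, exon lengths and overlaps come from GENCODE 29 and promoter windows from RefSeq (GRCh38.p14).

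The members, the lists and the tests were chosen with earlier results of these data known. Named genes are IRF3, all tested LAMP, ATG8, cargo receptor and transcription factor genes, the 6 genes of each other role with the lowest adjusted p, every gene that differed between the hairpins, and 3 of each further list, of which 1 is not reported here. ATP6V1C1, ATP6V1A, ATP6V0D1, ATP6V0E2, ATP6AP1L, ATG2B, ATG13, ATG5, ATG7, ATG12 and ATG16L1 were added after their values were seen where that rule missed them. Alternatives covered the threshold, a minimum fold change, the filter on low genes, recentring, the SE of the difference and, chosen after seeing the data, members with overlapping exons.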

Additional observations from a re-analysis of the deposited data

Results flagged for a closer look

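For 25 members the effects of the hairpins against the shared scramble libraries differed by the z test at an adjusted p below 0.05, beside 24.0% of all genes tested. Values are log2, shRNA 2 minus shRNA 1, computed from the authors' deposited tables. Among pump genes they were -0.93 for ATP6V0A1, -0.88 for ATP6AP1, -0.67 for ATP6V0C, -0.50 for ATP6V1G1 and -0.42 for ATP6V0B. They were 1.03 for ATP6V1F and 1.97 for ATP6V1G2, and 0.92 for ATP6V1FNB, a gene beside ATP6V1F. Among cathepsins they were -0.88 for CTSL, -0.54 for CTSZ, -0.41 for CTSB and -0.36 for CTSD, and 0.48 for CTSC, 0.60 for CTSS and 1.90 for CTSF. Among autophagy genes they were -0.77 for ATG4D, -0.60 for ATG9A and -0.48 for WIPI2. The positive ones were 0.35 for GABARAP, 0.41 for ATG16L2, 0.57 for BECN1, 0.62 for NBR1, 0.90 for ULK1 and 1.51 for ATG2A. The transcription factor MITF was at -0.76. ATG2A and NBR1 passed in both comparisons with opposite signs. IRF3 was at 0.347 times scramble with shRNA 1 and 0.881 times with shRNA 2, and whether this bears on any difference was not tested.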

How the results depend on the processing

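No paired analysis was possible because the deposited comparisons contain no values per library, and for the same reason none was left out in turn. The counts below are of members alone. Shares of all genes at the same settings were not counted, so no background stands beside them. With a minimum log2 fold change of 0.5, 7 members passed with shRNA 1 (2 higher, 5 lower) and 11 with shRNA 2 (7 higher, 4 lower). At an adjusted p below 0.01, 6 members were higher with shRNA 1, of 14 in all, and 19 passed with shRNA 2. Without the 21 members that share at least 10% of their exon bases with another gene, an alternative chosen after seeing the data, 7 were higher with shRNA 1, and 15, 18 and 17 passed with shRNA 1, with shRNA 2 and in the difference. Leaving the shared scramble variance out of the SE raised the members that were higher with shRNA 2 to 20, of 37 that differed. Among genes the naming rule took, 7 differences that had not passed did so with that SE. Recentring on the median gene (-0.04 in both tables) left 20 and 26 calls. It turned 6 members' values near 0 with shRNA 1, none of which had passed. These were ATP6AP1L, CTSH and, among genes the naming rule took, ATG10 to 0.0248, ATG4A to 0.0299, CTSD to 0.0234 and SQSTM1 to 0.00247. With no filter on low genes 18, 22 and 22 passed. The SEs of the members, 0.130 and 0.132 in the median, limit what these libraries can show.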
